A study of Homo sapiens with 18 samples.

Results

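TEX19 and 8 cancer-testis antigen genes, CTAG2, PRAME, MAGEA1, MAGEA3, MAGEA6, MAGEC1, MAGEC2 and SSX1, were followed in 18 RNA libraries of 2 human cell lines. They are 9 of 26249 genes in the expression tables, taken by symbol, and 8 of the 9 were among the 12204 genes tested. They were selected on their FPKM levels in these libraries, by line and dose, so their levels and fitted differences are a description, with no test. The libraries fell into 6 groups of 3, namely cells labelled XG1 and cells labelled AMO1, each kept for 6 h with the solvent DMSO or with YKL-5-124 at 100 or 1000 nM. XG1 and AMO1 are labelled as multiple myeloma lines, cancers of antibody-secreting plasma cells, and the series title speaks of resistant lines. YKL-5-124 binds covalently to CDK7, a kinase that acts on RNA polymerase II and on cell cycle kinases. Each line is a single culture model, and the labels do not say that the 3 replicates of a group were separate cultures, so p values measure library-to-library spread that may be technical.

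Cancer-testis genes are active in the male germ line, silent in most adult tissues through DNA methylation of their promoters, and active again in many tumours, where their peptides can be shown to T cells on HLA class I molecules. Many lie on the X chromosome in families of near copies, the MAGE, CTAG and SSX genes among them, while TEX19 (chromosome 17) and PRAME (chromosome 22) are autosomal. MAGE proteins of this type bind RING ubiquitin ligases and steer them to new substrates, and PRAME is the substrate receptor of a cullin ligase and a repressor of retinoic acid receptor signalling. TEX19 is a mammalian germ cell and early embryo protein whose mouse counterparts restrain retrotransposons.

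Levels are FPKM, fragments divided by transcript length and by the size of the library. The reads came from 3′ ends, whose number transcript length does not set, so levels of different genes are not compared. Depth is unknown, since the values are not counts, and a gene without reads shows a small value near the library's floor, its commonest low value, which lay between 0.0745 and 0.1333 FPKM. Log2 changes were computed after adding 1 to the FPKM, which understates the change of low genes, and carry the SE of limma's fit. A gene is called where limma's adjusted p over the 12204 tested genes is under 0.05.

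The labels of the lines were set beside marker genes. In the libraries labelled XG1, 1 of 10 plasma cell markers was at 10 FPKM or more throughout and 5 were under 1 FPKM throughout, and their summed level was 44.4 to 75.9 FPKM, against 9 of 10 and 4808 to 7249 FPKM in AMO1. SDC1, the plasma cell surface antigen CD138, was at 4.36 to 15.1 FPKM in XG1 and at 2916 to 4658 FPKM in AMO1, and POU2AF1 was at 0.0974 to 0.655 FPKM in XG1. By contrast 6 of 10 erythroid markers were at 10 FPKM or more throughout in XG1, with a summed level of 2939 to 3673 FPKM, against 0 of 10 and 3.57 to 25.2 FPKM in AMO1. The libraries labelled XG1 therefore go against the plasma cell origin of that line, and each line difference below is between the libraries so labelled. Their part in the results was not tested.

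The upstream sequences of 4 genes are shown for the CG pairs at which such promoters are methylated. Each is the 250 bases before the transcript start in RefSeq on GRCh38.p14, 5′ to 3′ on the gene's strand, with CG pairs in capitals. The MAGEA3 window is chrX:152698544-152698793 (+), MAGEC1 is chrX:141903644-141903893 (+), MAGEC2 is chrX:142205291-142205540 (-), and the first of 3 PRAME starts is chr22:22559266-22559515 (-).
MAGEA3: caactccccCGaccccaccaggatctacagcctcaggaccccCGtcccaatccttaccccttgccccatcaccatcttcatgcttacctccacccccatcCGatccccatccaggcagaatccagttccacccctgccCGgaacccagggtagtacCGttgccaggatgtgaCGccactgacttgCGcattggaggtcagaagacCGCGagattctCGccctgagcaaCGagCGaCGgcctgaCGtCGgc
MAGEC1: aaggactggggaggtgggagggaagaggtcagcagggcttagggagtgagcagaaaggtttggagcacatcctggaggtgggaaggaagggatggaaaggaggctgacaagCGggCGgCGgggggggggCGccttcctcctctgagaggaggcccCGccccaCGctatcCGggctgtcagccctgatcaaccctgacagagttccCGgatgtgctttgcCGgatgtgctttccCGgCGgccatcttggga
MAGEC2: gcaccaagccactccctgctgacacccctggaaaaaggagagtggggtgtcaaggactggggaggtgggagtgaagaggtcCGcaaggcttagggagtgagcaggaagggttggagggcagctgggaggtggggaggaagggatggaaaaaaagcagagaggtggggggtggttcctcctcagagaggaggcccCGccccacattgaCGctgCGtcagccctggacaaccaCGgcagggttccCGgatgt
PRAME: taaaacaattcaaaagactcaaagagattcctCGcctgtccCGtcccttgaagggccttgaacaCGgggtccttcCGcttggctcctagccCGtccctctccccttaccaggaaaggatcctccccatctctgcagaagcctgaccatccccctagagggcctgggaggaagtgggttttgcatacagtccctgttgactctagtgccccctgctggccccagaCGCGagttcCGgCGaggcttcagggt

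The MAGEA6 window (chrX:152769690-152769939, -) matched that of MAGEA3 at 250 of 250 bases. The pair's GENCODE transcripts, 1762 bases each, differ at 25 positions, and their last 300 bases, the part a 3′ end library reads, differ at 2. Reads of the 2 genes are therefore hard to assign, and MAGEA3 and MAGEA6 values are uncertain as single genes. MAGEC1 and MAGEC2 windows matched at 55.6% of aligned positions, and the last 300 bases of their transcripts at 63.9%. The MAGEA3 window holds 15 CG pairs, MAGEC1 11, MAGEC2 6 and the first PRAME start 9, while SSX1 holds 3, beside a median of 11 over 35116 RefSeq windows of this length. The letters CCGGAA, the core bound by ETS factors, were searched on both strands and lie once in the MAGEA3, MAGEA6 and first PRAME windows, and 14.5% of all windows hold them. CACGTG, the E-box of MYC, lies in none of the 8 member windows and in 6.34% of all. RefSeq windows were matched for 6 of the 9 genes, and TEX19, CTAG2 and MAGEA1 are named only.

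TEX19 was lower under YKL-5-124 in both lines and at both doses. In XG1 it measured 5.84, 5.39 and 5.53 FPKM in DMSO, 0.377, 0.436 and 1.11 FPKM at 100 nM and 0.433, 0.779 and 0.437 FPKM at 1000 nM. In AMO1 it measured 29.4, 32.7 and 20.1 FPKM in DMSO, 6.57, 4.55 and 6.76 FPKM at 100 nM and 4.15, 4.69 and 4.37 FPKM at 1000 nM. No treated library reached the lowest DMSO library of its line, and the doses of a line overlapped in XG1 and in AMO1. TEX19 was thus at 11.5% of its DMSO mean at 100 nM and 9.84% at 1000 nM in XG1, and at 21.8% and 16.1% in AMO1. On the log2 scale the differences from DMSO were -2.03 ± 0.20 and -2.09 ± 0.20 in XG1 and -2.02 ± 0.20 and -2.37 ± 0.20 in AMO1. Counted from the most reduced gene, TEX19 stood at place 48 of 12204 at both doses in XG1, and at place 34 at 100 nM and 42 at 1000 nM in AMO1.

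**Figure D1:**
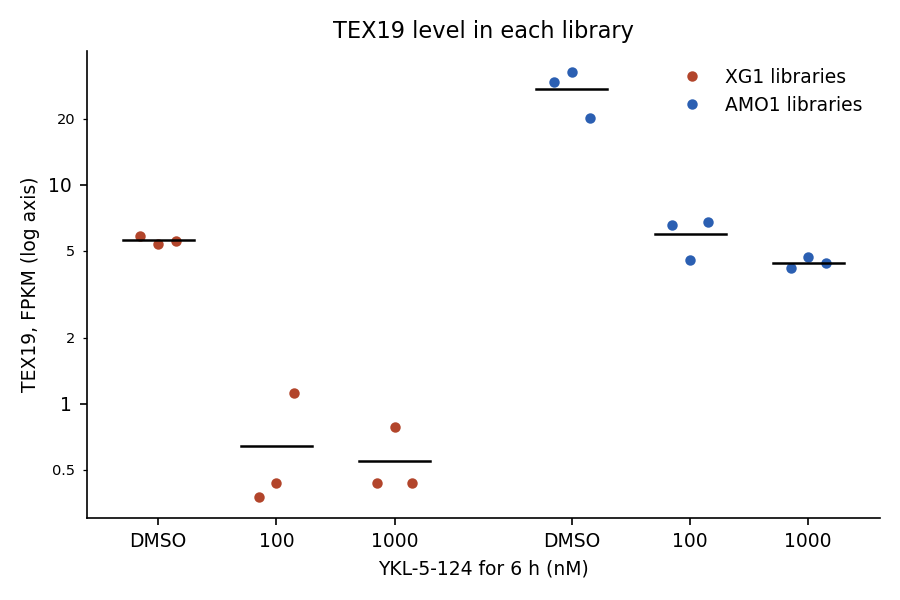
TEX19 level (FPKM, log axis) in each of the 18 libraries by line and dose of YKL-5-124; points are libraries and bars are means of 3. Treated libraries lie between 0.377 and 1.11 FPKM in XG1 and between 4.15 and 6.76 FPKM in AMO1, under every DMSO library of the same line.

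The lowest XG1 library stood at 3.59 times its floor, and every AMO1 library stood at 47.3 times its floor or more. With 0.1 in place of 1 added before taking logs, the XG1 differences were -3.07 at 100 nM and -3.17 at 1000 nM. The difference between the lines' log2 responses, XG1 minus AMO1, was -0.01 ± 0.29 at 100 nM and 0.27 ± 0.29 at 1000 nM. Ordered by mean, TEX19 was highest in AMO1 DMSO at 27.4 ± 6.56 FPKM, then AMO1 100 nM at 5.96 ± 1.22, XG1 DMSO at 5.59 ± 0.230, AMO1 1000 nM at 4.40 ± 0.273, XG1 100 nM at 0.643 ± 0.410 and XG1 1000 nM at 0.550 ± 0.199 FPKM (SD, n = 3 each). AMO1 at 100 nM overlapped both XG1 in DMSO and AMO1 at 1000 nM, and the 2 treated XG1 groups overlapped each other. In bulk libraries fewer cells with a transcript and less of it per cell cannot be told apart.

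The levels of the genes beside TEX19 were also read. In RefSeq order on chromosome 17 its neighbours are CD7, SECTM1, UTS2R and OGFOD3. OGFOD3 averaged 4.14, 2.76 and 2.98 FPKM in XG1 at DMSO, 100 nM and 1000 nM, and 2.54, 1.30 and 1.61 FPKM in AMO1. Its means were thus lower at each dose than in DMSO. Its libraries overlapped DMSO at 1000 nM in XG1 and at both doses in AMO1, where those of TEX19 did not. SECTM1 and UTS2R had group means of up to 0.191 and 0.114 FPKM, near the floor, so no change could be read. CD7, a T cell surface antigen, averaged 17.2, 14.0 and 19.0 FPKM in XG1 and 0.253, 0.157 and 0.126 FPKM in AMO1, the line in which TEX19 was higher.

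The genes whose log2 levels ran most like TEX19 over the 18 libraries were KIAA0020 (Pearson r = 0.971), KIF7 (0.961), GNB1L (0.957), JMJD6 (0.953) and CD3EAP (0.952). The 18 points share line, dose and library scaling. JMJD6, a jumonji-domain hydroxylase gene, averaged 22.5, 7.22 and 9.95 FPKM in XG1 at DMSO, 100 nM and 1000 nM, and 36.4, 19.2 and 15.0 FPKM in AMO1. KIF7, a kinesin of the Hedgehog pathway, averaged 2.45, 1.17 and 0.913 FPKM in XG1 and 5.56, 3.16 and 2.30 FPKM in AMO1. Both had the shape of TEX19, higher in AMO1 and lower at each dose, with smaller changes from DMSO. Within the 9 XG1 libraries alone the closest were FOXC1 (0.984), SNHG19 (0.983), WDR48 (0.982), DHRS9 (0.979) and DDX17 (0.976), and none of these was among the 5 closest over all libraries.

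CTAG2, of the NY-ESO antigen family, separated the lines most among the 9 genes. In XG1 it measured 1.41, 1.68 and 1.64 FPKM in DMSO, 0.0924, 6.89 and 2.09 FPKM at 100 nM and 1.03, 2.76 and 2.002 FPKM at 1000 nM. The AMO1 libraries measured 1461, 1634 and 1050.4 FPKM in DMSO, 1318, 1872 and 1646 FPKM at 100 nM and 1659.8, 1351 and 1255 FPKM at 1000 nM. The lines did not overlap at any dose, and the AMO1 mean was 876, 533 and 736 times the XG1 mean in DMSO, at 100 nM and at 1000 nM. The dose groups overlapped within AMO1 and within XG1, where 1 library at 100 nM lay under its floor of 0.105 FPKM. Against DMSO in AMO1 CTAG2 was at 0.23 ± 0.51 at 100 nM and 0.06 ± 0.51 at 1000 nM on the log2 scale. The SE is shared with the low XG1 libraries, and fitted on the 6 AMO1 libraries alone it was 0.24 at 100 nM and 0.23 at 1000 nM.

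CTAG1B, the near copy of CTAG2 that encodes NY-ESO itself, was also higher in AMO1. It was at 0.0730 to 0.118 FPKM in XG1, at the floor, and at 1.23 to 5.92 FPKM in AMO1. The last 300 bases of the 2 transcripts match at 96.1% of aligned positions, and sharing of reads between them was not tested. The levels most like that of CTAG2 were those of SNURF and HLA-DRA (r = 0.997 each over 18 libraries), both of which split the lines.

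**Figure D2:**
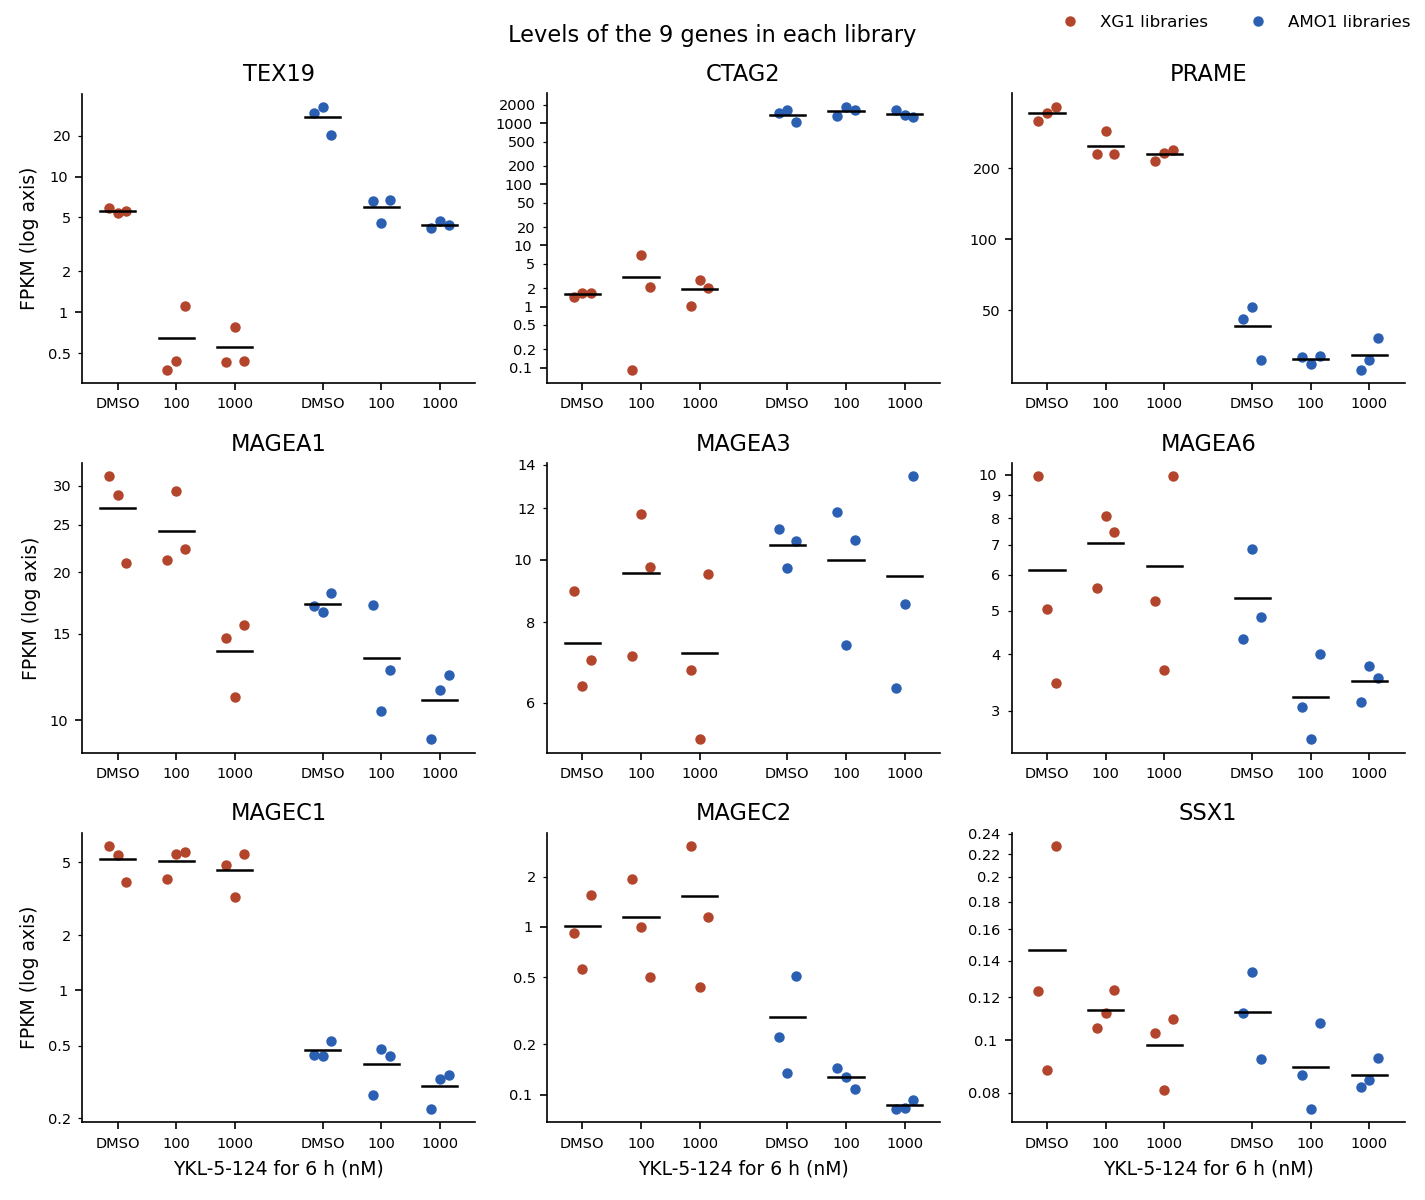
Level of each of the 9 genes (FPKM, log axes that differ between panels) in every library, XG1 left and AMO1 right, by dose of YKL-5-124; points are libraries and bars are means of 3. CTAG2 is at 1050.4 FPKM or more in the AMO1 libraries and at 6.89 FPKM or less in the XG1 libraries, while PRAME and MAGEC1 are higher in XG1.

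PRAME ran the other way between the lines. In XG1 it measured 318, 342 and 364 FPKM in DMSO, 229, 287 and 231 FPKM at 100 nM and 216, 232 and 239.6 FPKM at 1000 nM. AMO1 had 45.8, 51.7 and 30.8 FPKM in DMSO, 31.9, 29.8 and 32.0 FPKM at 100 nM and 28.1, 31.0 and 38.3 FPKM at 1000 nM. Every XG1 library stood above every AMO1 library, and the XG1 mean was 7.98, 7.98 and 7.06 times the AMO1 mean in DMSO, at 100 nM and at 1000 nM. Within XG1 all 6 treated libraries lay under the lowest DMSO library, with log2 differences of -0.46 ± 0.17 at 100 nM and -0.57 ± 0.17 at 1000 nM. AMO1 had differences of nearly the same size, -0.41 ± 0.17 at 100 nM and -0.37 ± 0.17 at 1000 nM, with overlapping groups. AMO1 DMSO replicate 3 was the lowest of its group for TEX19, CTAG2 and PRAME. Without that library the PRAME differences in AMO1 were -0.62 and -0.58. With median centring PRAME in XG1 at 1000 nM was at -0.31. PRAME's level was most like those of PRKAR2B (r = 0.994), a regulatory subunit of protein kinase A, and MAP1B (0.993).

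MAGEA1, the founding gene of the MAGE family, was within 2-fold between the lines' means and was lowest at 1000 nM in each. In XG1 it measured 31.3, 28.7 and 20.9 FPKM in DMSO, 21.1, 29.3 and 22.3 FPKM at 100 nM and 14.7, 11.1 and 15.6 FPKM at 1000 nM. In AMO1 it measured 17.1, 16.6 and 18.1 FPKM in DMSO, 17.1, 10.4 and 12.6 FPKM at 100 nM and 9.13, 11.5 and 12.4 FPKM at 1000 nM. At 1000 nM no library overlapped DMSO in either line, while at 100 nM the groups overlapped in both. The log2 difference from DMSO was -0.14 ± 0.20 at 100 nM and -0.91 ± 0.20 at 1000 nM in XG1.

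In AMO1 MAGEA1 averaged 11.0 ± 1.68 FPKM at 1000 nM, against 17.3 ± 0.804 FPKM in DMSO (SD, n = 3 each), a log2 difference of -0.61 ± 0.20. At 100 nM the difference was -0.37 ± 0.20. The value at 1000 nM moved to -0.32 with median centring of the libraries and to -0.34 with quantile normalization, and lay between -0.70 and -0.50 leaving out 1 library. NCAPD3, a condensin subunit (r = 0.969), and TMED5 (0.954) ran most like MAGEA1. NCAPD3 averaged 6.67, 5.96 and 3.59 FPKM in XG1 at DMSO, 100 nM and 1000 nM, and 4.65, 3.24 and 2.57 FPKM in AMO1.

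MAGEA3 and MAGEA6, whose proteins bind the ubiquitin ligase TRIM28, were expressed in both lines. MAGEA3 measured 8.95, 6.37 and 6.9997 FPKM in XG1 DMSO, 7.10, 11.7 and 9.74 FPKM at 100 nM and 6.74, 5.27 and 9.49 FPKM at 1000 nM. In AMO1 it measured 11.2, 9.71 and 10.7 FPKM in DMSO, 11.9, 7.36 and 10.7 FPKM at 100 nM and 6.32, 8.52 and 13.4 FPKM at 1000 nM. All dose groups overlapped. Its log2 differences from DMSO in AMO1 were -0.09 ± 0.25 at 100 nM and -0.20 ± 0.25 at 1000 nM, and both turned positive with median centring (0.086 and 0.095) or quantile normalization (0.053 and 0.081).

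MAGEA6 measured 9.91, 5.05 and 3.46 FPKM in XG1 DMSO, 5.60, 8.12 and 7.48 FPKM at 100 nM and 5.26, 3.69 and 9.91 FPKM at 1000 nM. AMO1 gave 4.32, 6.84 and 4.84 FPKM in DMSO, 3.07, 2.59 and 4.01 FPKM at 100 nM and 3.15, 3.77 and 3.54 FPKM at 1000 nM. Treated AMO1 libraries all lay under the lowest DMSO library, with log2 differences of -0.58 ± 0.30 at 100 nM and -0.48 ± 0.30 at 1000 nM. In XG1 the differences from DMSO at 100 and 1000 nM were 0.26 ± 0.30 and 0.04 ± 0.30 for MAGEA6. For MAGEA3 they were 0.31 ± 0.25 and -0.07 ± 0.25.

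Since the 2 genes may share reads, their sum was also taken. It averaged 13.6 ± 4.60 FPKM in DMSO, 16.6 ± 3.63 FPKM at 100 nM and 13.5 ± 5.37 FPKM at 1000 nM in XG1, and 15.9 ± 0.606, 13.2 ± 2.81 and 12.9 ± 3.80 FPKM in AMO1 (SD, n = 3 each). The ranges of the sum overlapped between the lines at each dose and between DMSO and each dose in XG1, while in AMO1 the 100 nM libraries lay under DMSO and the 1000 nM libraries overlapped it. The ratio of MAGEA3 to MAGEA6 was 0.902 to 2.02 over the 9 XG1 libraries and 1.42 to 3.87 over the 9 AMO1 libraries.

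MAGEC1, an antigen often found in myeloma, was higher in XG1. It measured 6.14, 5.52 and 3.92 FPKM in XG1 DMSO, 4.03, 5.53 and 5.69 FPKM at 100 nM and 4.81, 3.22 and 5.52 FPKM at 1000 nM. Its AMO1 values were 0.444, 0.439 and 0.529 FPKM in DMSO, 0.269, 0.477 and 0.436 FPKM at 100 nM and 0.225, 0.329 and 0.344 FPKM at 1000 nM. The lines never overlapped, and the XG1 mean was 11.0, 12.9 and 15.1 times the AMO1 mean in DMSO, at 100 nM and at 1000 nM. Against DMSO its log2 differences in AMO1 were -0.08 ± 0.19 at 100 nM and -0.18 ± 0.19 at 1000 nM. Median centring turned both positive (0.10 and 0.11). At these low levels the scale compresses change, since AMO1 stood at 0.299 ± 0.0650 FPKM at 1000 nM and 0.471 ± 0.0505 FPKM in DMSO without overlap. TJP1, a tight junction scaffold (r = 0.997), and LMO2, a haematopoietic transcription cofactor (0.995), had levels most like MAGEC1.

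MAGEC2, which binds TRIM28 as MAGEA3 does, was low in XG1 and near the floor in AMO1. Over the 9 XG1 libraries it was at 0.440 to 3.04 FPKM with a median of 0.995 FPKM, and the 3 dose groups overlapped. In AMO1 8 of 9 libraries were under 2 times their floor. AMO1 DMSO replicate 3 was the exception at 0.513 FPKM. Its log2 differences from DMSO in AMO1 were -0.18 ± 0.29 at 100 nM and -0.24 ± 0.29 at 1000 nM, and the second became 0.058 with median centring. SSX1, a repressor known from its fusion to SS18 in synovial sarcoma, did not pass the filter on low values. It was at 0.0746 to 0.228 FPKM over the 18 libraries, under 2 times the floor in 17 of them, so no change could be read.

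**Figure D3:**
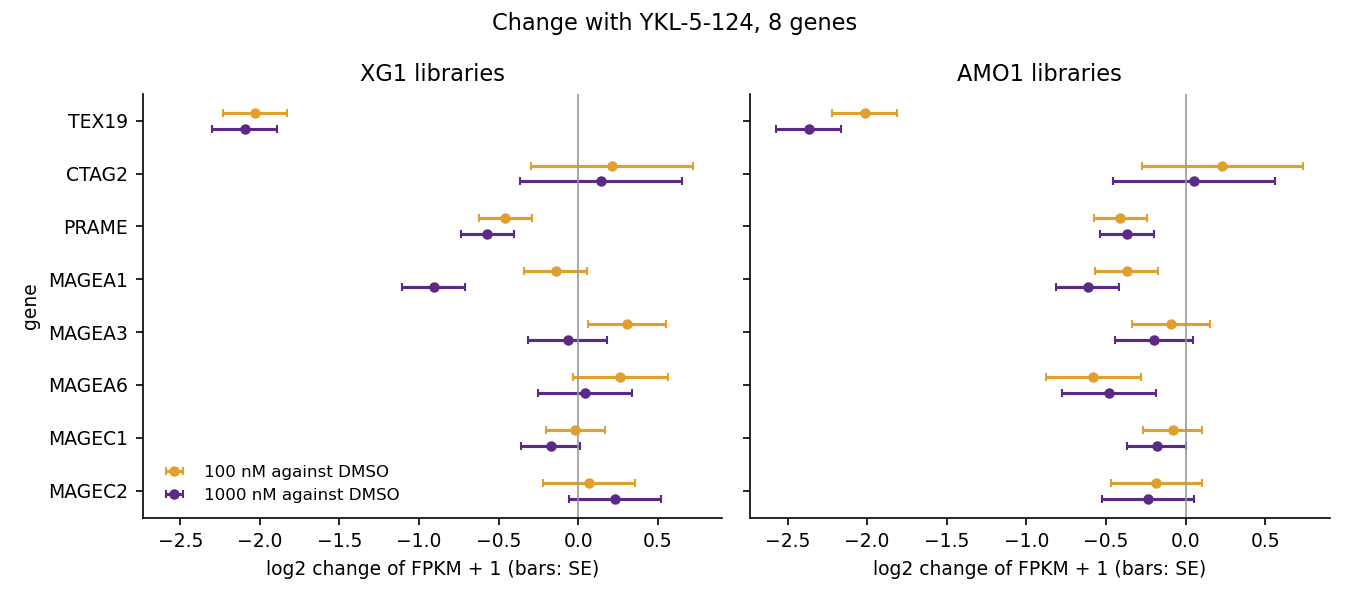
Log2 change of FPKM + 1 from DMSO for the 8 genes that passed the filter, at 100 and 1000 nM YKL-5-124, in XG1 (left) and AMO1 (right); points are fitted differences and bars their SE. TEX19 lies at -2.02 or lower in all 4 comparisons, and the other genes lie between -0.91 and 0.31.

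The share of all genes past limma's threshold gives the background for these differences. In AMO1 2.2% of the 12204 genes were called at 100 nM (0.434% higher and 1.76% lower) and 17.1% at 1000 nM (1.78% higher and 15.4% lower). In XG1 6.61% were called at 100 nM (2.63% higher and 3.98% lower) and 17.6% at 1000 nM (1.9% higher and 15.7% lower). Between the lines in DMSO 62.7% were called (28.3% higher in XG1 and 34.4% lower). Of the 8 members that passed the filter the same threshold took 1 as lower at 100 nM in each line, TEX19, and at 1000 nM 3 in XG1 and 2 in AMO1, but the members were selected on these values and nothing is read from those counts. From 100 to 1000 nM 0.139% of genes were called in XG1 and 0.18% in AMO1, and no member was among them.

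Scaling bears on the smaller changes. With median centring the median log2 of all genes at 1000 nM was 0.07 in XG1 and 0.11 in AMO1, and as deposited it was -0.19 and -0.18. TEX19 under that scaling was at -2.02 and -1.84 in XG1 and at -1.84 and -2.07 in AMO1 at 100 and 1000 nM. Markers of other cell types also moved within the lines. At 1000 nM 4 of 10 erythroid markers were called lower in XG1 (15.7% of all genes were), KLF1 at 14.4 ± 2.42 FPKM against 56.8 ± 2.43 FPKM in DMSO, while their summed level was 2939 to 3501 FPKM against 3368 to 3673 FPKM. In AMO1 3 of 10 plasma cell markers were called lower at 1000 nM (15.4% of all genes were), IRF4, SLAMF7 and TNFRSF17, with a summed level of 4808 to 5454 FPKM against 5215 to 7249 FPKM in DMSO. With median centring 2 of 10 erythroid markers were called lower in XG1 at 1000 nM, and 1 of 10 plasma cell markers in AMO1. Quantile normalization gave the same 2 counts. Over all 12204 genes median centring called 969 lower in XG1 and 815 lower in AMO1 at 1000 nM. Counts over all genes under other settings are given further below. The part of these markers in the members' changes was not tested.

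The other cancer-testis genes of the X chromosome gave a frame for the members. Of 113 listed symbols 101 were in the tables and 12 passed the filter. With YKL-5-124 none of the 12 was called at 100 nM in either line. At 1000 nM 1 of 12 fell in AMO1, MAGEA10, to 20.4 ± 5.37 FPKM against 40.3 ± 8.36 FPKM in DMSO (log2 -0.96, limma adjusted p = 0.00386), and 1 fell in XG1, MAGEB1, by 0.84 (adjusted p = 0.0298), where 15.4% of all genes were lower in AMO1 and 15.7% in XG1. MAGEB1 lost its call in 7 of 12 alternatives and MAGEA10 in none. Median centring and quantile normalization each also called 1 gene of this list higher in AMO1 at 1000 nM. Over all 12204 genes these 2 scalings called 1012 and 861 higher there. Of the 12 genes 6 passed the filter through AMO1 alone, so no count or test between the lines is given for this list. Those 6 averaged under 1 FPKM in every XG1 group, so their fall in XG1 could hardly be seen. The XG1 counts with YKL-5-124 therefore rest mainly on the 6 genes that passed in both lines. MAGEA10 was at 0.211 ± 0.0633 FPKM in XG1 DMSO against 40.3 ± 8.36 FPKM in AMO1 DMSO, and MAGEB2 at 0.966 ± 0.808 FPKM against 22.4 ± 4.71 FPKM.

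Autosomal cancer-testis genes other than the members numbered 50 symbols, of which 8 were tested. None was called at 100 nM. At 1000 nM BAGE fell in AMO1 to 10.8 ± 1.04 FPKM against 18.8 ± 1.67 FPKM in DMSO (log2 -0.75, limma adjusted p = 0.0055), a call lost with pseudocount 0.1, median centring and quantile normalization. In XG1 at 1000 nM ZNF165 was at 1.81 ± 0.599 FPKM against 0.675 ± 0.185 FPKM in DMSO. TEX15 was at 0.575 ± 0.138 FPKM against 1.18 ± 0.382 FPKM. Both cross the filter's minimum between these groups, so no test or call is read for them. Only 3 of the 8 passed the filter in both lines, with 4 passing in XG1 alone and 1 in AMO1 alone. A gene that did not pass in a line averaged under 1 FPKM in each of its groups. Its fall in that line could hardly be seen. CTCFL, the testis paralog of the insulator protein CTCF, was at 14.0 ± 2.63 FPKM in XG1 DMSO against 0.874 ± 0.561 FPKM in AMO1 DMSO, and BAGE at 0.0957 ± 0.0143 FPKM, the floor, against 18.8 ± 1.67 FPKM.

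**Figure D4:**
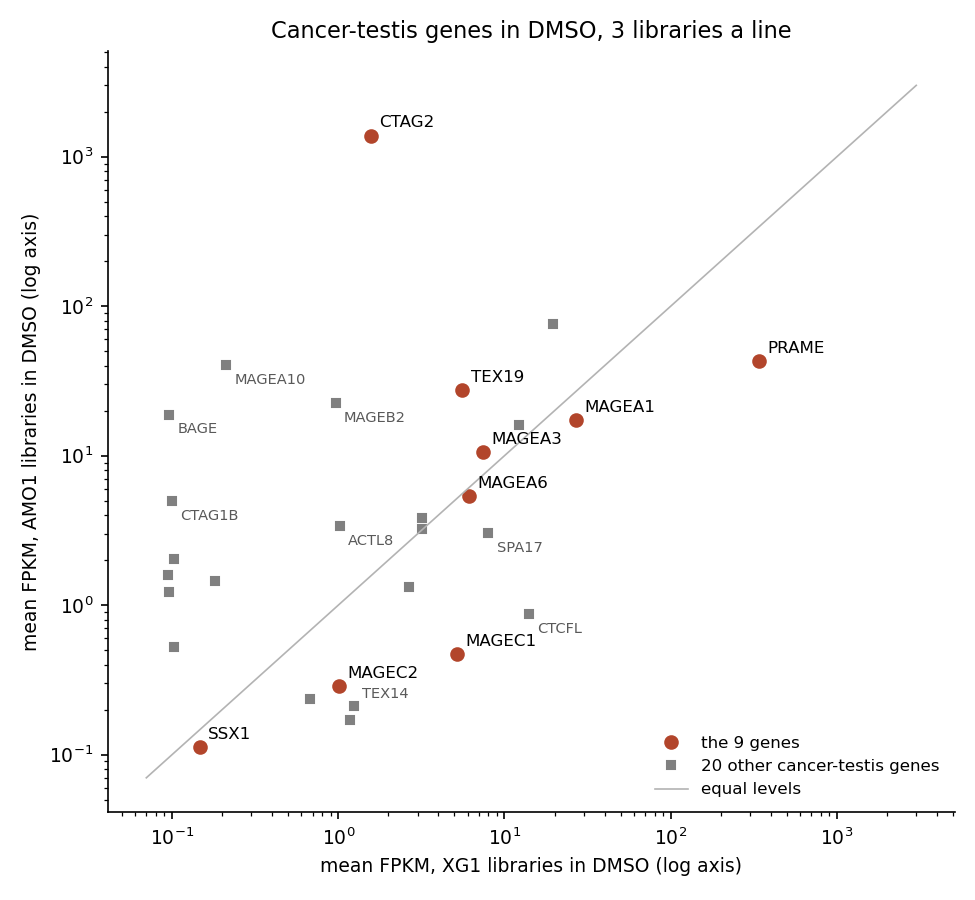
Mean level in DMSO (FPKM, log axes) in XG1 against AMO1 for the 9 genes and for other cancer-testis genes of the X chromosome and the autosomes that were tested; the diagonal marks equal levels. CTAG2, TEX19, MAGEA10 and BAGE lie on the AMO1 side, and PRAME, MAGEC1 and CTCFL on the XG1 side.

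The type II MAGE genes, widely expressed relatives that are not cancer-testis antigens, had 5 tested members of 12 symbols. None was called at 100 nM. MAGEF1 fell at 1000 nM in XG1, to 13.1 ± 3.22 FPKM against 33.2 ± 2.81 FPKM in DMSO (log2 -1.30, limma adjusted p = 0.000168), and in AMO1 (-0.69, adjusted p = 0.0181), where 6 of 12 alternatives ended the call. MAGEH1 fell in XG1 by 1.61 (adjusted p = 0.00646). At 1000 nM 2 of 5 fell in XG1 and 1 in AMO1, beside 15.7% and 15.4% of all genes. In DMSO 2 of 5 were higher in XG1 and 3 lower, beside 28.3% and 34.4%, MAGED1 most (-4.24, adjusted p = 1.09e-12).

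Known protein partners of the members and their ligase machinery, 12 tested of 14 symbols, had no call at 100 nM. XPO1, the exportin, fell at 1000 nM in both lines, by 0.65 in XG1 (limma adjusted p = 0.00819) and by 0.72 in AMO1 (adjusted p = 0.00417). EZH2, a histone methyltransferase reported to bind PRAME, fell by 0.54 in XG1 (adjusted p = 0.0273), a call kept in 4 of 12 alternatives. UBR2, the ubiquitin ligase that binds Tex19 proteins in the mouse, was not called at either dose and was at 4.71 ± 0.104 FPKM in XG1 DMSO against 1.69 ± 0.223 FPKM in AMO1 DMSO (log2 1.09, adjusted p = 6.48e-05). That is the opposite side from TEX19 itself. In DMSO 6 of 12 partners were higher in XG1 and none was lower, beside 28.3% and 34.4% of all genes. At 1000 nM 2 of 12 fell in XG1 and 1 in AMO1, beside 15.7% and 15.4%.

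Part of a list of genes tied to the silencing of germ line promoters fell in both lines. This list holds DNA methyltransferases, the E2F6 and Polycomb group, SETDB1 and other repressors, with 28 of 29 symbols tested. It also holds TET1, TET2 and TET3, whose enzymes act against DNA methylation, and the insulator protein gene CTCF. The counts below are therefore not of silencers alone. At 100 nM 4 of 28 fell in XG1 and 2 in AMO1, beside 3.98% and 1.76% of all genes. At 1000 nM 10 of 28 fell in XG1 and 12 in AMO1, beside 15.7% and 15.4% of all genes, and none rose at either dose. Under median centring the counts at 1000 nM were 7 lower and 1 higher in XG1 and 6 lower and 0 higher in AMO1. Over all 12204 genes that scaling called 969 lower and 969 higher in XG1, and 815 lower and 1012 higher in AMO1. The list's median log2 at 1000 nM was -0.37 in XG1 and -0.47 in AMO1, beside -0.19 and -0.18 over all genes.

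E2F6, which recruits repressors to germ line genes, was at 3.48 ± 0.793 FPKM at 1000 nM in AMO1 against 9.27 ± 3.08 FPKM in DMSO (log2 -1.16, limma adjusted p = 0.00328), and at 100 nM it fell by 1.11 (adjusted p = 0.0204). SETDB1, a histone H3 lysine methyltransferase, fell by 1.01 at 1000 nM in AMO1 (adjusted p = 0.00284) and by 0.87 at 100 nM in XG1 (adjusted p = 0.0173). HELLS, a remodeller needed for DNA methylation, fell to 5.82 ± 1.02 FPKM at 1000 nM in XG1 against 16.3 ± 0.732 FPKM in DMSO (log2 -1.35, adjusted p = 4.40e-05). CTCF fell by 1.07 at 100 nM and by 1.26 at 1000 nM in XG1 (adjusted p = 0.000714 and 6.30e-05), and by 0.66 at 100 nM in AMO1 (adjusted p = 0.0454), a call kept in 2 of 12 alternatives. At 1000 nM in AMO1 CTCF fell by 0.89 (limma adjusted p = 0.00151) and HELLS by 0.71 (adjusted p = 0.00916). Alternatives were not run for those values. E2F6 at 100 nM kept its call in 5 of 12 and SETDB1 at 100 nM in 8 of 12.

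HLA class I presentation genes, through which peptides of such antigens reach T cells, were set beside the members. All 22 were tested, and 17 of them passed the filter through both lines. Those 17 were all lower in XG1 than in AMO1 in DMSO, where 34.4% of all genes were. The other 5 passed through AMO1 alone, so their side was set by the filter and is not counted. B2M, the class I light chain, was at 480.0 to 767 FPKM over the XG1 libraries and at 2875 to 3509 FPKM over the AMO1 libraries. PRAME and MAGEC1 were thus at their higher levels in the libraries with the lower B2M level. CTAG2 and TEX19 went the other way, and were lower in XG1 than in AMO1 at each dose. With YKL-5-124 at 100 and 1000 nM 1 and 2 of 22 fell in XG1 and 2 and 3 fell in AMO1, and none rose. The 5 genes that passed through AMO1 alone averaged under 1 FPKM in every XG1 group. Their fall in XG1 could hardly be seen, so the XG1 counts rest mainly on the other 17. Over all genes 3.98% and 15.7% fell in XG1 and 1.76% and 15.4% in AMO1. IRF1, an activator of class I genes, fell in AMO1 by 0.87 at 100 nM (limma adjusted p = 0.0231, kept in 3 of 12 alternatives) and by 1.14 at 1000 nM (adjusted p = 0.000753).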

How the data were processed

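RNA of the lines labelled XG1 and AMO1, grown in 12-well plates in RPMI with serum, was extracted with TRIzol and made into QuantSeq 3′ libraries, per the labels' protocols. The labels gave each library's group and number. HISAT2, Cuffnorm and hg19 are named as the authors' tools and build, per the submitters' processing notes, with versions, annotation and strand not given in the sources used here. Deposited expression is in FPKM, a unit inferred from Cuffnorm, since the file headers say only expression. All 18 tables hold 26249 genes and 92 ERCC spike-ins, which were left out. Between 9284 and 10571 genes per library reached 1 FPKM, and no 2 libraries of a group were identical. Depth is unknown, so no counting interval was set.

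Genes whose mean reached 1 FPKM in any group were tested with limma 3.58.1 (R 4.3.3, trend and robust) on log2(FPKM + 1), in 1 two-sided fit of the 18 libraries, with p adjusted by Benjamini-Hochberg at a threshold of 0.05. The procedure was tested on simulated data. Differences of the members are given without p values, since all 18 libraries entered their selection. The members and gene lists were chosen with earlier results of these data known. From each list up to 3 called genes per direction with groups that did not overlap were eligible to be named, and genes of like level were the 5 highest Pearson correlations for TEX19 and 2 for the others. Some results for genes eligible by this rule are not reported here. B2M, CTAG1B levels, KLF1, SDC1, POU2AF1 and the TEX19 neighbours stand as markers or near copies. Comparisons of 1 line share their DMSO libraries. Alternatives were another pseudocount (0.1), no filter, median centring, quantile normalization, a fit on the 6 libraries compared, a replicate block and leaving out each library. Promoter windows are RefSeq sequences on GRCh38.p14 and transcripts are GENCODE sequences, used for sequence only.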

Additional observations from a re-analysis of the deposited data

How the results depend on the processing

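TEX19 kept its direction in every alternative run, between -1.76 and -3.17 on the log2 scale over the 4 dose comparisons. Small values of other members changed sign in both lines. In AMO1 at 100 nM MAGEA3 became 0.086 with median centring, 0.053 with quantile normalization and 0.094 without 100 nM replicate 2 (-0.22 to 0.094 leaving out 1 library), and MAGEC1 became 0.10 with centring. At 1000 nM MAGEA3 became 0.095, 0.081 and 0.028 (centring, quantile normalization, without 1000 nM replicate 1, with -0.46 to 0.028 leaving out 1 library), and MAGEC1 became 0.11 and MAGEC2 0.058 with centring. CTAG2 became -0.13 without DMSO replicate 3 and -0.061 without 1000 nM replicate 1 (-0.13 to 0.19 leaving out 1 library). In XG1 at 100 nM leaving out 1 library gave -0.49 to 0.94 for CTAG2 and -0.025 to 0.62 for MAGEA6. It gave -0.18 to 0.11 for MAGEC1 and -0.19 to 0.29 for MAGEC2. At 1000 nM in XG1 it gave -0.062 to 0.38 for CTAG2, -0.26 to 0.11 for MAGEA3 and -0.30 to 0.40 for MAGEA6. MAGEC1 there ran from -0.33 to 0.0091 and MAGEC2 from -0.17 to 0.58. MAGEA1 in XG1 at 100 nM reached 0.0025 among the other alternatives. The cause of these sign changes was not tested.

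The number of genes called moved more. In AMO1 at 100 nM it was 268, and 137 with pseudocount 0.1, 477 with centring (289 higher, 188 lower), 459 with quantile normalization, 63 with only the 6 libraries and 101 to 980 leaving out 1 library, the highest without DMSO replicate 3, while DMSO replicates 1 and 2 and 100 nM replicates 1 and 2 each moved it by over 1.5 times. At 1000 nM in AMO1 it was 2091 (217 higher, 1874 lower) and 1185 to 3049 leaving out 1 library (over 1.5 times lower without DMSO replicate 1 or 2 or 1000 nM replicate 1 or 2), with splits of 1012 to 815 under centring and 861 to 1011 under quantile normalization. In XG1 at 100 nM it was 807, and 1499 with centring, 1878 with quantile normalization and 399 to 611 leaving out 1 library (over 1.5 times lower when a DMSO replicate, 100 nM replicate 1 or 100 nM replicate 3 was dropped). At 1000 nM in XG1 it was 2152 (232 higher, 1920 lower) and 1110 to 2574 leaving out 1 library (over 1.5 times lower without DMSO replicate 1 or 2 or 1000 nM replicate 2), with 969 each way under centring. Between the lines it was 7652, and 6968 to 7790 leaving out 1 library.

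Same-numbered libraries did not deviate together (18 pairs, correlations -0.124 to 0.0908, none over 0.1), so the numbers do not pair them. With the number as a replicate block 123 genes were called in AMO1 and 486 in XG1 at 100 nM. Between the lines no block could be fitted, since replicate numbers lie within a line. Of 27 calls of other genes named by the rule above 14 held in every alternative run and 13 ended in some. Among the 13 were IRF4 and TNFRSF17 in AMO1 and XPO1 in XG1 at 1000 nM, each kept in 10 of 12. The 27 include ZNF165 and TEX15 in XG1, whose calls are not read because both cross the filter's minimum. Values under 2 times the floor, MAGEC2 in AMO1 and SSX1, limit what can be read.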

Other observations

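Most markers of male germ cells were low. Of 10 such genes 7 were under 1 FPKM in all XG1 libraries and 9 in all AMO1 libraries, with DAZL at 0.0810 to 0.124 FPKM in XG1 and 0.0745 to 0.133 FPKM in AMO1, at the floor. SYCP3, ZPBP and ACRV1 reached 2.15, 1.97 and 1.17 FPKM in their highest XG1 library and 0.675, 0.135 and 0.586 FPKM in their highest AMO1 library. SOHLH1, a transcription factor of early germ cells, was at 0.0904 to 0.445 FPKM in XG1 and 103 to 299 FPKM in AMO1. Of the 10 genes 3 passed the filter, none of them in both lines, so no test between the lines is given.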
